A study of Homo sapiens with 10 samples.

Results

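Cells make cholesterol and fatty acids from acetyl-CoA through enzymes whose genes share a set of regulators, and 32 genes of these routes were examined here in MEG-01, a line of human leukemia cells with megakaryoblast features, after transfection with the microRNA miR-1225-3p. The genes were taken from a fixed list: 8 of the mevalonate pathway, 3 that lead from farnesyl diphosphate to lanosterol, 6 that lead from lanosterol to cholesterol, 9 of fatty acid synthesis, elongation and desaturation, 5 regulators of the SREBP factors and the sterol carrier gene STARD4. Of the 32 genes, 31 were among the 17379 genes that could be tested. Of the 17379, 11995 had a RefSeq gene symbol, and the rest are transcripts counted as genes under the array's own names. GGPS1, which makes geranylgeranyl diphosphate for the prenylation of proteins, had 1 probe, which was not well above background on any of the 10 arrays and was left out.

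In the mevalonate pathway, acetyl-CoA units are joined and reduced to mevalonate, then converted to isoprenoid units that build farnesyl diphosphate. Farnesyl diphosphate is either used for isoprenoids such as dolichol and prenyl groups or joined to squalene, which is closed to lanosterol and trimmed to cholesterol. Fatty acid synthesis draws on the same cytosolic acetyl-CoA. SREBP factors, made by SREBF1 and SREBF2, switch on the genes of both routes. When sterols are low, SCAP escorts SREBP to the Golgi, where the active factor is cut free, and INSIG proteins hold SCAP back in the endoplasmic reticulum when sterols are high.

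The transfected microRNA and promoter stretches of 4 genes that passed the test below are shown for orientation, SREBF2 for its sterol regulatory element and LSS, TM7SF2 and ACSS2 as examples chosen after their values were seen, since SREBP, NF-Y and SP1 are the factors known to act together at promoters of these routes. The mature miR-1225-3p lies in the microRNA gene MIR1225 at chr16:2090195-2090216 on the minus strand of GRCh38.p14, and its seed, bases 2 to 8, is in capitals. The promoter stretches are from RefSeq on the same build, each upstream of the annotated start of its gene and read along the gene's strand. Capitals mark the core of a sterol regulatory element in SREBF2 (chr22:41832962-41832991, plus strand) and the reverse complement of the NF-Y box CCAAT in LSS (chr21:46228907-46228936, minus strand), TM7SF2 (chr11:65111786-65111815, plus strand) and ACSS2 (chr20:34874854-34874883, plus strand).
hsa-miR-1225-3p: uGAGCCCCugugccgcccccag
SREBF2: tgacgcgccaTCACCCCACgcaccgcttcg
LSS: cgcggcgctctgATTGGttgcgtgggcgtc
TM7SF2: ccccgagcgccgATTGGctggtgtgctggg
ACSS2: gccctccttgggATTGGgcagactctcggt
Promoter windows of 28 of the 32 genes were at hand, 40 windows in all. On either strand, the sterol regulatory element core TCACNCCAC was found in 1 of the 40 windows (2.5%) and in 1.13% of all 35116 windows of the same length. The letters CCAAT were found in 57.5% of the windows of these genes and in 34.6% of all windows, and the SP1 letters GGGCGG in 87.5% and 45% respectively. Matches of different motifs or strands can overlap, as can windows of the same gene. A match is a description of the letters and not a bound site.

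The arrays compared 5 cultures transfected with 200 nM of the miR-1225-3p precursor and 5 transfected with 200 nM of a scrambled control precursor, all by nucleofection and all collected after 24 hours. Both groups were the same line in the same serum-containing medium, and RNA came from the whole culture, transfected and untransfected cells together. The titles call the cultures biological replicates, and the design text has all experiments done in parallel. For the scrambled cultures the source field reads as if they had no treatment, but titles and protocol describe a transfection, which was taken as correct.

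The share of spots well above background ranged from 41.95% to 53.85% in the miR-1225-3p group and from 43.09% to 61.18% in the scrambled group, with 0 saturated spots. Among 15 megakaryocyte markers, 14 had a probe and 7, including ITGA2B, GATA1 and NFE2, were well above background on all 10 arrays, while PF4 was on 0. Of the 10 markers tested, 3 were lower in miR-1225-3p cells, where 18.1% of all genes were lower, and 0 higher, where 17.0% were higher, and their mean log2 signal ranged from 7.42 to 8.48 in the miR-1225-3p group, with replicate 5 the highest, and from 8.49 to 8.58 in the scrambled group. The lymphocyte markers CD3D and CD79A and the epithelial marker EPCAM were also well above background on all 10 arrays, and CD2, MS4A1, COL1A2, COL3A1 and CDH1 on 0. EPCAM was 0.90 higher on the log2 scale in miR-1225-3p cells (adjusted p = 0.0156). CD3E, well above background on 4 arrays, was 1.96 higher (adjusted p = 0.0327), and CD3D and CD79A did not pass. The part of these markers in the differences below was not tested, and fewer cells of a kind and less RNA per cell cannot be told apart in such samples.

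Replicate 5 of miR-1225-3p stood apart from the other 4 arrays of its group. Of the 13 genes described below as changed, all 13 had replicate 5 as the miR-1225-3p array nearest to the scrambled mean, and its value lay inside the range of the scrambled arrays for 7 of them. Replicate 4 was the farthest from that mean for 9 of the 13. The log2 fold changes with all arrays and without replicate 5 are therefore both given for these 13 genes. For every tested gene both are drawn in a later figure, and the text gives the second for only some of the others.

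The genes of these routes moved in both directions. Of the 31 genes tested, 13 (41.9%) differed between the groups at an adjusted p under 0.05 (limma), against 35.0% of all genes tested. Signals of 9 genes were lower in miR-1225-3p cells, where 18.1% of all genes were lower, and those of 4 were higher, where 17.0% of all genes were higher. Among the genes that passed, the lowest log2 fold changes were those of LSS, TM7SF2 and FDFT1, which act in the sterol branch after farnesyl diphosphate, and these 3 were past 2-fold. LSS and TM7SF2 were dim on some arrays, and with a normexp background correction FDFT1 measured -1.51, LSS -1.15 and TM7SF2 -0.31, the last no longer past the threshold (adjusted p = 0.0916). All 4 rises were under 2-fold and were in ACAT2, PMVK, ACACA and SREBF1. The median log2 fold change of the 31 genes was -0.14, beside -0.06 for all genes tested. Among genes whose probe was well above background on all 10 arrays, which leaves out LSS, TM7SF2 and HSD17B7, 13 of 28 passed, 5 higher and 8 lower, against 39.0% of all such genes.

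**Figure D1:**
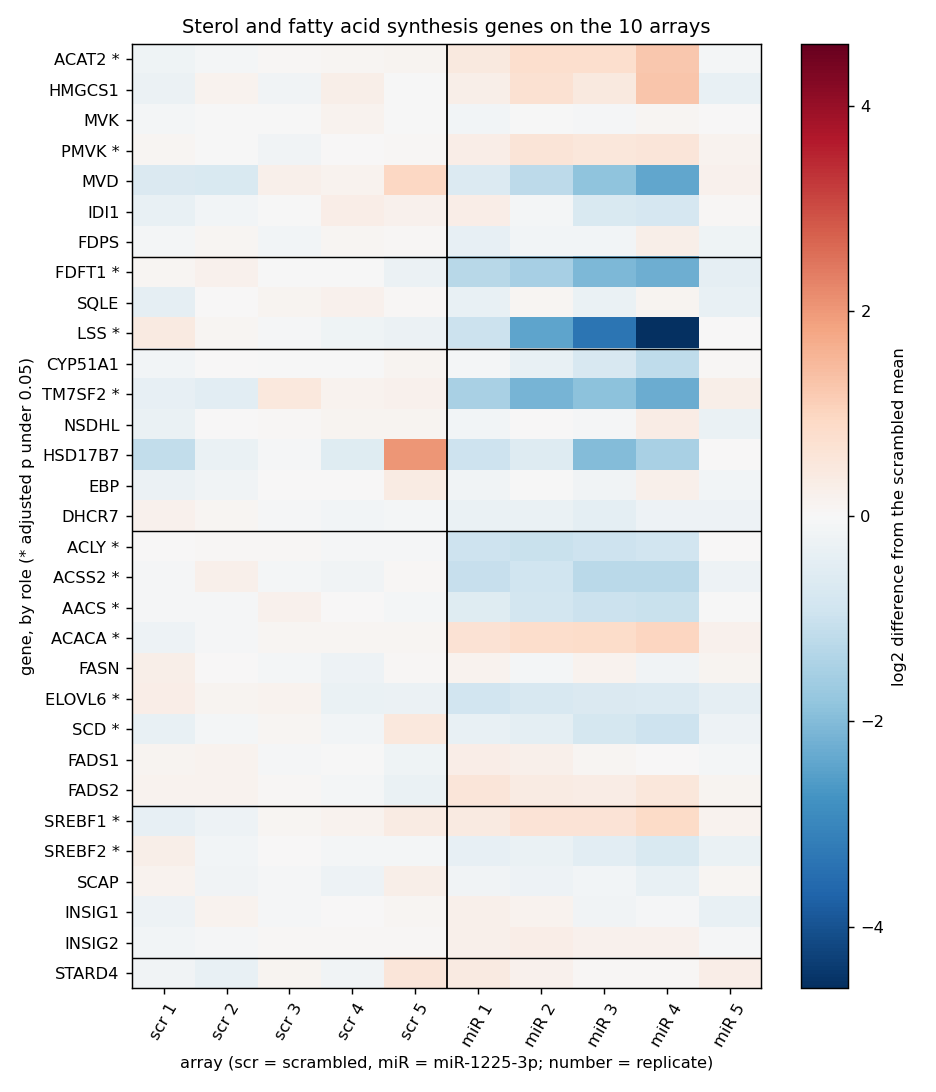
Heat map of the log2 difference of each of the 31 tested genes (rows, grouped by role, an asterisk marks adjusted p under 0.05) from its own scrambled mean on the 5 scrambled and 5 miR-1225-3p arrays (columns). LSS is the darkest blue row on miR-1225-3p replicates 2 to 4, and TM7SF2, FDFT1, MVD and HSD17B7 are also dark on some of these arrays. Replicate 5 is close to the scrambled arrays in most rows.

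Arrays of the 2 groups did not overlap for 7 of the 31 genes (22.6%), against 12.7% of all genes tested, and 6 of the 7 were among the 13. Without replicate 5, 18 of the 31 genes passed the test, against 55.4% of the 17279 genes then tested, and groups did not overlap for 17 of the 31, the 13 genes included, against 46.0% of all genes. Leaving out other arrays lowered the count: 8 genes passed without miR-1225-3p replicate 1, 4 without replicate 2, 4 without replicate 3 and 5 without replicate 4, where 25.0%, 12.5%, 13.3% and 20.9% of all genes passed. Without scrambled replicates 1 to 5 in turn, 6, 6, 5, 5 and 9 genes passed, beside 19.5%, 19.1%, 22.6%, 20.5% and 29.7% of all genes. The 4 genes that passed with each of the 10 arrays left out in turn were FDFT1, ACSS2, ELOVL6 and ACACA. The share of all genes that passed in every one of these 10 fits was not computed, so this count has no background beside it. ACLY passed in 8 of these 10 fits, PMVK in 4, AACS in 3, LSS, SREBF1 and SREBF2 in 2, and ACAT2 and SCD in 1, that without replicate 5. TM7SF2 passed in 2 of the 7 fits that kept its probe. The highest adjusted p among these fits was 0.108, for SCD.

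How the arrays were scaled changed the balance of rises and falls but not the sign of any of the 13. With subtraction of the 75th percentile in place of the cyclic loess, the median of all genes tested shifted by 0.22 on the log2 scale, 9 genes of the 31 were higher and 6 lower, and the median of the 31 was 0.36, or 0.20 relative to the median of all genes. With that scaling 4562 of all 17379 genes were called higher and 2585 lower. Of all called genes 36.2% were then lower, against 51.6% with cyclic loess. With quantile normalization the median of all genes shifted by 0.14, and 5 genes of the 31 were higher and 7 lower. Of all 17379 genes 3635 were then higher and 2511 lower, so that 40.9% of all called genes were lower. Without any scaling 86.3% of all called genes were lower, and 0 of the 31 passed, beside 1266 of all 17379 genes. An unadjusted p under 0.05 in limma was then found for 7 of the 31 and 4625 of all genes. The text below gives the cyclic loess values.

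The mevalonate pathway held both rises among the sterol enzymes. Of the 7 genes tested here, 2 were higher, 0 lower and 5 did not pass. The share that passed was 28.6%, against 35.0% of all genes tested. ACAT2, which joins acetyl-CoA units in the cytosol, had log2 signals of 11.18, 11.52, 11.50, 11.98 and 10.66 on miR-1225-3p replicates 1 to 5 and of 10.55, 10.66, 10.78, 10.82 and 10.87 on the scrambled replicates. On replicates 1 to 4 the signal lay above every scrambled array, and on replicate 5 within them. The mean was 11.37 ± 0.49 (SD, n = 5) against 10.73 ± 0.13 (n = 5), a log2 fold change of 0.63 ± 0.22 (SE, adjusted p = 0.0486 from limma), which was 0.81 without replicate 5 (adjusted p = 0.00272). The threshold was missed with normexp, where the log2 fold change of ACAT2 was 0.52 (adjusted p = 0.0542), and with slide as a block (adjusted p = 0.0692). PMVK, which adds a phosphate to phosphomevalonate, measured 7.10, 7.37, 7.30, 7.33 and 6.95 against 6.87, 6.77, 6.63, 6.80 and 6.82. Here all 5 miR-1225-3p arrays were above all 5 scrambled arrays, including replicate 5. The log2 fold change was 0.43 ± 0.12 (SE, adjusted p = 0.0277), and the exact two-sided permutation p over the 10 arrays was 0.00794, the smallest that 5 against 5 can give. Without replicate 5 the log2 fold change of PMVK was 0.50 (adjusted p = 0.00344 from limma).

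HMGCS1, which condenses acetoacetyl-CoA with acetyl-CoA, had signals of 9.91, 10.35, 10.09, 10.92 and 9.28 on the miR-1225-3p arrays and of 9.36, 9.81, 9.49, 9.89 and 9.63 on the scrambled arrays. Replicates 1 to 4 were above the scrambled arrays and replicate 5 below all of them. The difference of 0.47 ± 0.27 on the log2 scale did not pass (adjusted p = 0.182), and it was 0.67 without replicate 5 (adjusted p = 0.024). MVD, which makes isopentenyl diphosphate, differed by more but in the other direction and with a wide spread in both groups. Its signals were 6.83, 6.27, 5.60, 5.07 and 7.67 against 6.81, 6.76, 7.70, 7.63 and 8.41, with a log2 fold change of -1.17 ± 0.50 that did not pass (adjusted p = 0.0846) and was -1.50 without replicate 5 (adjusted p = 0.0154). MVK, which phosphorylates mevalonate, differed by -0.03 ± 0.11 (adjusted p = 0.849), IDI1, which isomerises isopentenyl diphosphate, by -0.24 ± 0.23 (adjusted p = 0.425), and FDPS, which builds farnesyl diphosphate and has near-identical pseudogene copies that could share its probe, by -0.11 ± 0.14 (adjusted p = 0.557). The groups overlapped for all 3 of these genes.

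Of the 3 genes that carry farnesyl diphosphate to lanosterol, 2 fell and 1 did not pass, where 18.1% of all genes tested were lower. FDFT1, squalene synthase, the enzyme that commits farnesyl diphosphate to sterols, had log2 signals of 11.51, 11.26, 10.71, 10.51 and 12.35 on miR-1225-3p replicates 1 to 5. On the scrambled arrays they were 12.85, 12.96, 12.76, 12.77 and 12.52. Every miR-1225-3p array was below every scrambled array, with replicate 5 the nearest to them. The mean of 11.27 ± 0.73 (SD, n = 5) was 2.83-fold below 12.77 ± 0.16 (n = 5), a log2 fold change of -1.50 ± 0.31 (SE, adjusted p = 0.0141 from limma, exact permutation p = 0.00794), and -1.77 without replicate 5 (adjusted p = 0.000197). The next enzyme, SQLE, which oxidises squalene, was bright and close in both groups. Its signals were 13.64, 14.07, 13.68, 14.10 and 13.65 against 13.56, 13.99, 14.11, 14.17 and 14.03, and the log2 fold change was -0.14 ± 0.16 (adjusted p = 0.504). The arrays of both groups spanned nearly the same range.

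LSS, lanosterol synthase, which closes oxidosqualene to the first sterol, showed a wide spread among the miR-1225-3p arrays. Its signals were 7.33, 5.87, 4.95, 3.74 and 8.32 on the miR-1225-3p arrays and 8.71, 8.42, 8.26, 8.12 and 8.04 on the scrambled arrays. Replicates 1 to 4 were below every scrambled array and replicate 5 was among them. The probe cleared the background on 3 arrays of the miR-1225-3p group and on all 5 scrambled arrays, so the lowest values lie where the array measures poorly. The mean of 6.04 ± 1.83 (SD, n = 5) was 4.82-fold below 8.31 ± 0.27 (n = 5), a log2 fold change of -2.27 ± 0.73 (SE, adjusted p = 0.0384, exact permutation p = 0.0317), and -2.82 without replicate 5 (adjusted p = 0.00346). With other arrays left out in turn the adjusted p reached 0.0866, and with slide as a block it was 0.0586. With normexp the log2 fold change of LSS was -1.15 (adjusted p = 0.0282).

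Among the 6 genes that convert lanosterol to cholesterol, TM7SF2 passed the test and 5 did not. The share that passed was 16.7%, against 35.0% of all genes tested. TM7SF2, a sterol C14-reductase, was dim. Its signals were 3.83, 3.22, 3.44, 3.05 and 5.62 on the miR-1225-3p arrays and 4.97, 4.87, 5.82, 5.50 and 5.54 on the scrambled arrays. All but replicate 5, which was inside their range, lay below the scrambled arrays. The probe cleared the background on 1 array of the miR-1225-3p group and on 3 of the scrambled group. It was thus kept through the group where it is higher, and its values in miR-1225-3p cells lie mostly at background. Its log2 fold change was -1.51 ± 0.45 (SE, adjusted p = 0.0304), or -1.96 without replicate 5 (adjusted p = 0.000274), and -0.31 with normexp (adjusted p = 0.0916). DHCR7, the last enzyme of the Kandutsch-Russell route, had a small difference of -0.31 ± 0.12, and its groups did not overlap (exact permutation p = 0.00794). It missed the threshold in limma with all arrays (adjusted p = 0.0626) and passed without replicate 5 (adjusted p = 0.0291). CYP51A1, lanosterol demethylase, differed by -0.46 ± 0.22 (adjusted p = 0.122), or by -0.59 without replicate 5 (adjusted p = 0.0328). HSD17B7, a 3-ketosteroid reductase with a near-identical pseudogene copy, differed by -0.997 ± 0.58 (adjusted p = 0.187) on a dim probe, well above background on 2 of 5 and 3 of 5 arrays, with 1 scrambled array at 7.70 and the other 4 at 5.61 or less. NSDHL, which removes the methyl groups with its partners, and EBP, the sterol isomerase, differed by -0.02 ± 0.16 (adjusted p = 0.915) and -0.05 ± 0.15 (adjusted p = 0.798). These last 2 genes had overlapping groups and differed by less than the spread between arrays.

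**Figure D2:**
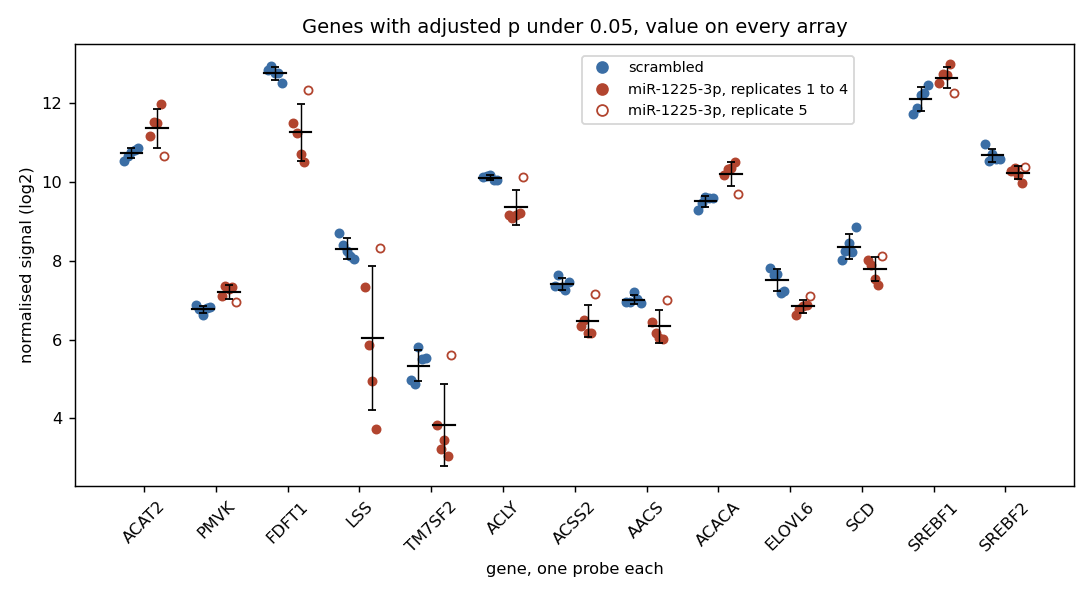
Normalised log2 signal of the 13 genes with adjusted p under 0.05 on every array, blue for scrambled and red for miR-1225-3p, with replicate 5 as an open circle and black bars for the mean and SD of 5 arrays. Replicate 5 lies beside the blue points for LSS, TM7SF2, ACLY and AACS, and FDFT1, ACSS2, ELOVL6 and SREBF2 have all red points below the blue ones.

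Of the 9 genes that supply and build fatty acids, 6 passed (66.7%, against 35.0% of all genes tested). Among them 1 was higher and 5 were lower, where 17.0% and 18.1% of all genes were. ACLY, ACSS2 and AACS fell, 3 genes whose enzymes make acetyl-CoA or activate acetoacetate in the cytosol. ACLY, which cleaves citrate to cytosolic acetyl-CoA, measured 9.17, 9.08, 9.17, 9.23 and 10.14 on the miR-1225-3p arrays and 10.13, 10.17, 10.19, 10.05 and 10.05 on the scrambled arrays. Replicates 1 to 4 lay close to each other and nearly 1 log2 unit below the scrambled arrays, and replicate 5 was among the scrambled arrays. The log2 fold change was -0.76 ± 0.20 (SE, adjusted p = 0.0219) and -0.96 without replicate 5 (adjusted p = 9.05e-05). With the 75th percentile subtracted it was -0.39 and missed the threshold (adjusted p = 0.0815). ACSS2, which activates acetate to acetyl-CoA, measured 6.34, 6.49, 6.17, 6.18 and 7.16 against 7.35, 7.64, 7.34, 7.26 and 7.46. All miR-1225-3p arrays were below all scrambled arrays, and the log2 fold change was -0.94 ± 0.20 (adjusted p = 0.0142, exact permutation p = 0.00794), or -1.11 without replicate 5 (adjusted p = 0.000144). AACS, which activates acetoacetate for lipid synthesis, measured 6.46, 6.17, 6.05, 6.004 and 7.02 against 6.96, 6.97, 7.21, 7.02 and 6.94. Its replicates 1 to 4 were below the scrambled arrays and replicate 5 was level with them, with a log2 fold change of -0.68 ± 0.20 (adjusted p = 0.0274), or -0.84 without replicate 5 (adjusted p = 0.000594) and -0.32 with normexp (adjusted p = 0.0505).

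ACACA, acetyl-CoA carboxylase, which makes malonyl-CoA and sets the pace of fatty acid synthesis, rose. Its signals were 10.19, 10.33, 10.35, 10.51 and 9.71 on the miR-1225-3p arrays and 9.29, 9.48, 9.62, 9.60 and 9.60 on the scrambled arrays. All miR-1225-3p arrays were above all scrambled arrays, replicate 5 by a small margin. The log2 fold change was 0.70 ± 0.17 (SE, adjusted p = 0.017, exact permutation p = 0.00794), or 0.82 without replicate 5 (adjusted p = 0.00048). A dimmer probe of ACACA was also higher, by 0.51 ± 0.17 (adjusted p = 0.0424 over all kept probes). FASN, fatty acid synthase, which uses the malonyl-CoA, measured 11.64, 11.39, 11.63, 11.32 and 11.59 against 11.75, 11.49, 11.37, 11.25 and 11.54. The ranges were nearly the same, with a difference of 0.03 ± 0.14 (adjusted p = 0.853).

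ELOVL6, which lengthens palmitate, measured 6.63, 6.77, 6.84, 6.88 and 7.10 on the miR-1225-3p arrays and 7.83, 7.63, 7.67, 7.19 and 7.24 on the scrambled arrays. The groups did not overlap, although the highest miR-1225-3p array and the lowest scrambled array were close, and the log2 fold change was -0.67 ± 0.16 (SE, adjusted p = 0.0179, exact permutation p = 0.00794). Without replicate 5 the log2 fold change of ELOVL6 was -0.73 (adjusted p = 0.0036). SCD, which places the first double bond in stearate, measured 8.01, 7.90, 7.55, 7.40 and 8.12 against 8.03, 8.25, 8.45, 8.22 and 8.85. Replicate 5 overlapped the lowest scrambled array. The log2 fold change of -0.56 ± 0.20 was only just past the threshold (adjusted p = 0.0498). Of the 10 fits with an array left out it passed only without replicate 5, at -0.65 (adjusted p = 0.0203). It was -0.37 with the 75th percentile subtracted (adjusted p = 0.148) and -0.39 with quantile normalization (adjusted p = 0.138). FADS1 and FADS2, the desaturases of polyunsaturated fatty acids, differed by 0.11 ± 0.13 (adjusted p = 0.523) and 0.39 ± 0.14 (adjusted p = 0.0554). FADS2 measured 0.44 higher without replicate 5 (adjusted p = 0.0168).

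**Figure D3:**
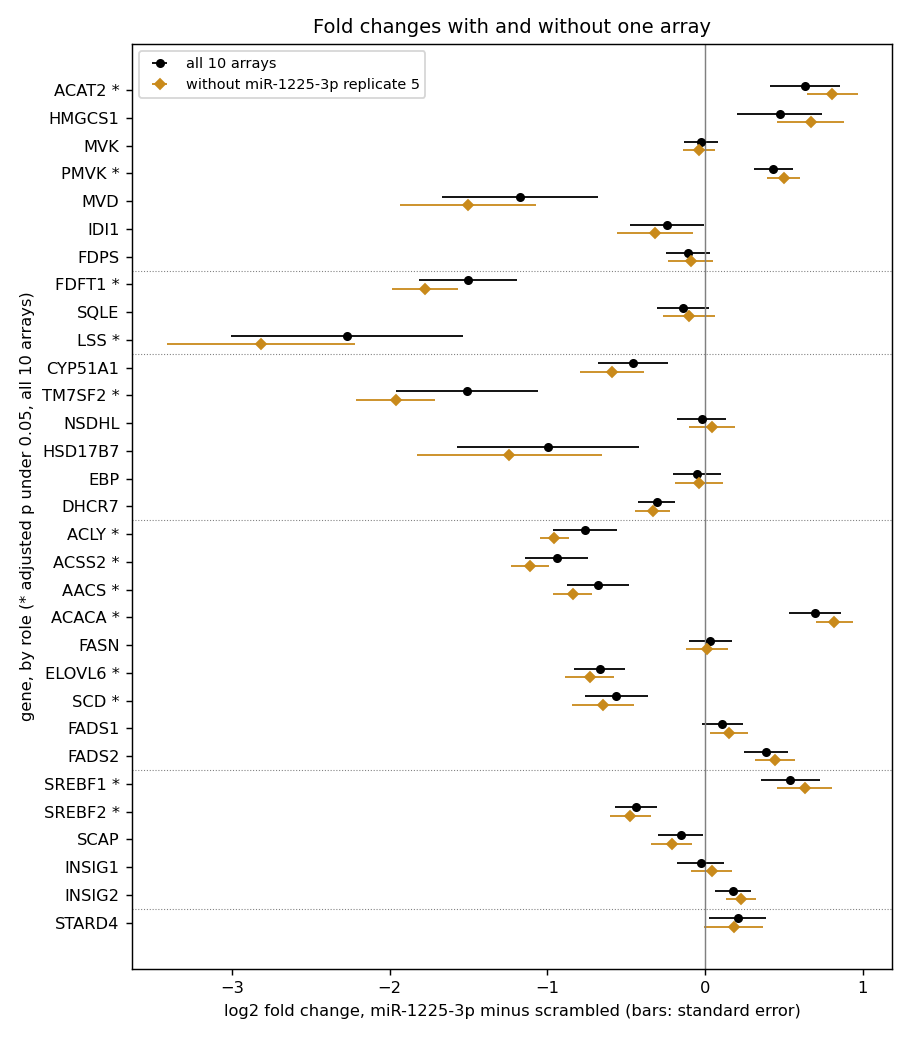
Log2 fold change of miR-1225-3p over scrambled cells for the 31 tested genes, grouped by role, with standard errors, from all 10 arrays (black circles) and without miR-1225-3p replicate 5 (yellow diamonds). The yellow points of the 13 genes marked with an asterisk lie farther from 0 than the black ones, as for LSS at -2.82 against -2.27.

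The genes of the SREBP factors themselves differed in opposite directions on the probes used, and their regulators did not pass. SREBF2, the factor known mainly for cholesterol genes, measured 10.29, 10.37, 10.19, 9.99 and 10.38 on the miR-1225-3p arrays and 10.96, 10.54, 10.71, 10.60 and 10.60 on the scrambled arrays. The groups did not overlap. The log2 fold change was -0.44 ± 0.13 (SE, adjusted p = 0.0327, exact permutation p = 0.00794) and -0.48 without replicate 5 (adjusted p = 0.0125). With the 75th percentile of each array subtracted it was -0.0025 (adjusted p = 0.991), or -0.16 relative to the median of all genes. It also missed the threshold with quantile normalization, at -0.31 (adjusted p = 0.0737).

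SREBF1, the factor known mainly for fatty acid genes, measured 12.53, 12.75, 12.73, 13.00 and 12.28 on the miR-1225-3p arrays and 11.74, 11.88, 12.22, 12.27 and 12.48 on the scrambled arrays. Here too replicates 1 to 4 exceeded every scrambled array and replicate 5 did not. The log2 fold change was 0.54 ± 0.19 (SE, adjusted p = 0.0465) and 0.63 without replicate 5 (adjusted p = 0.013). A second SREBF1 probe, dimmer but well above background on all 10 arrays, went the other way. Its signals were 6.91, 6.99, 7.84, 6.77 and 8.16 against 8.69, 8.50, 7.73, 7.91 and 7.69, a difference of -0.77 ± 0.32 (adjusted p = 0.0798 over all kept probes). The mean of both probes differed by -0.12 (adjusted p = 0.529), so the rise of SREBF1 rests on 1 of its 2 probes. In the authors' normalized values it was 0.44 (adjusted p = 0.057). Both probes carry the same transcript accession in the scanner output.

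SCAP, the escort of SREBP, measured 8.32, 8.27, 8.38, 8.17 and 8.58 on the miR-1225-3p arrays and 8.64, 8.35, 8.46, 8.26 and 8.78 on the scrambled arrays, with a difference of -0.15 ± 0.14 (adjusted p = 0.399). INSIG1, a direct SREBP target that retains SCAP, measured 10.68, 10.61, 10.31, 10.41 and 10.11 against 10.21, 10.63, 10.39, 10.49 and 10.54, with a difference of -0.03 ± 0.15 (adjusted p = 0.881). The groups overlapped for both genes. INSIG2, which acts like INSIG1, measured 10.56, 10.62, 10.52, 10.54 and 10.28 against 10.22, 10.26, 10.40, 10.38 and 10.39. Replicates 1 to 4 were above the scrambled arrays by small margins, but the difference of 0.18 ± 0.11 did not pass (adjusted p = 0.234), and a dimmer INSIG2 probe differed by -0.13 ± 0.14 (adjusted p = 0.462 over all kept probes). STARD4, which carries cholesterol between membranes, differed by 0.21 ± 0.18 (adjusted p = 0.37), with signals from 9.65 to 10.01 on the miR-1225-3p arrays inside the range of 9.26 to 10.14 on the scrambled arrays.

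**Figure D4:**
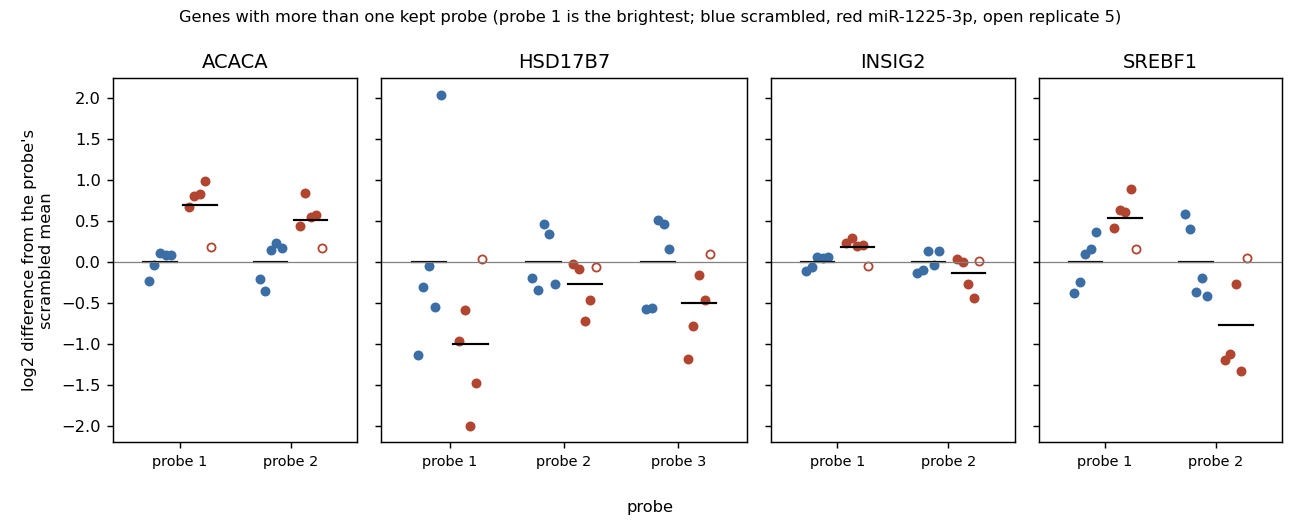
Log2 difference from the scrambled mean of each kept probe, on every array, for the 4 genes with more than 1 kept probe, with blue for scrambled, red for miR-1225-3p, an open circle for replicate 5 and black lines for means. The 2 ACACA probes are both higher in miR-1225-3p cells (0.70 and 0.51), whereas the SREBF1 probes differ in sign (0.54 and -0.77).

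Slide 1 carried replicates 1 and 2 of miR-1225-3p and 3 scrambled arrays, and slide 2 carried replicates 3 to 5 and the other 2 scrambled arrays. Within each slide, 12 of the 13 changed genes had the same sign as over all arrays, and TM7SF2 did not keep its probe within a slide. On slide 1, 7 of the 29 genes tested there passed, all among the 13, beside 29.4% of all genes. On slide 2, which holds replicate 5, limma called 0 of the 29 genes tested there and 0 of all 14632 genes. Of the 29, 1 gene, FDFT1, had an unadjusted p under 0.05, beside 1183 of all genes. FDFT1 differed by -1.32 on slide 1 and -1.67 on slide 2, LSS by -1.81 and -2.55, ACSS2 by -0.99 and -0.93, and ACACA by 0.76 and 0.64. With slide as a block over all arrays 9 of the 31 genes passed, beside 30.4% of all genes.

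Genes next to these routes were read from lists made by role. Among 5 tested genes of sterol synthesis outside the 32, 2 were lower and 0 higher. ERG28, a scaffold of the C4-demethylation enzymes, fell by 1.89 on the log2 scale (adjusted p = 0.0435) with signals of 5.03 to 9.14 against 8.91 to 9.60. Of 12 genes of SREBP processing and sterol sensing, 2 were higher and 3 lower, among them the ubiquitin-conjugating enzyme gene UBE2G2 at -0.86 ± 0.25 (adjusted p = 0.029). Another of the 3 lower genes was well above background on 2 miR-1225-3p and 5 scrambled arrays. It was thus kept through the group where it was higher. PGRMC1, a haem-binding partner of sterol enzymes, rose by 0.43 (adjusted p = 0.0349). Replicate 5 was within the scrambled range for ERG28, UBE2G2 and PGRMC1, and without it the log2 fold changes were -2.34, -1.10 and 0.50. The share that passed was 40% in the former list and 41.7% in the latter, against 35.0% of all genes.

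Among 13 genes that use isoprenoids, 3 were higher and 1 lower. RABGGTB, a subunit of the enzyme that attaches geranylgeranyl groups to Rab proteins, rose 2.89-fold, from signals of 10.16 to 10.52 to signals of 11.33 to 12.15, with no overlap (log2 fold change 1.53 ± 0.17, adjusted p = 0.00631), and FNTA, a farnesyltransferase subunit, rose by 0.50 (adjusted p = 0.0402). Of 12 genes of cholesterol uptake, transport and efflux, 1 was higher and 3 lower. Among these 3, 1 gene was well above background on 1 miR-1225-3p and 3 scrambled arrays, and was kept through the group where it was higher. The oxysterol-binding protein gene OSBP fell by 1.75 (adjusted p = 0.0282), the lysosomal cholesterol carrier gene NPC2 fell by 0.95 (adjusted p = 0.0343), and SOAT1, which esterifies cholesterol, rose by 1.02 (adjusted p = 0.0218). Replicate 5 was within the scrambled range for FNTA, OSBP, NPC2 and SOAT1, and without it the log2 fold changes were 0.64, -2.10, -1.15 and 1.29.

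Of 19 other genes of fatty acid synthesis, elongation and activation, 3 were higher and 4 lower. TECR, the last enzyme of the elongation cycle, fell by 1.27 (adjusted p = 0.0245), ELOVL1, which lengthens saturated fatty acids, fell by 1.09 (adjusted p = 0.0213), and SLC25A1, which exports the citrate that ACLY cleaves, fell by 1.08 (adjusted p = 0.0178). Replicate 5 was within the scrambled range for TECR, ELOVL1 and SLC25A1, and without it their log2 fold changes were -1.55, -1.33 and -1.32. Of 15 genes of fatty acid oxidation, 3 were higher and 3 lower, with CPT2, the inner carnitine palmitoyltransferase, at -1.04 ± 0.20 (adjusted p = 0.0136), HADHA of the trifunctional protein at -1.14 ± 0.37 (adjusted p = 0.0407) and the medium-chain dehydrogenase ACADM at 0.70 ± 0.19 (adjusted p = 0.0242). For HADHA replicate 5 was within the scrambled range (-1.47 without it), and for CPT2 and ACADM it was outside. The other lower gene of the oxidation list was well above background on 2 miR-1225-3p and 5 scrambled arrays. It too was kept through the group where it was higher. Of 10 genes of glycerolipid synthesis and lipid droplets, 0 were higher and 2 lower, 1 of them the acyltransferase AGPAT3 at -0.53 ± 0.14 (adjusted p = 0.0216). The share that passed in the lists of isoprenoid use, transport, other fatty acid synthesis, oxidation and glycerolipids was 30.8%, 33.3%, 36.8%, 40% and 20%, on both sides of the 35.0% of all genes. Without replicate 5, the number that passed in these 5 lists was 7, 8, 11, 9 and 6, and 3 and 5 in the lists of other sterol synthesis and SREBP processing, where 55.4% of all genes passed.

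**Figure D5:**
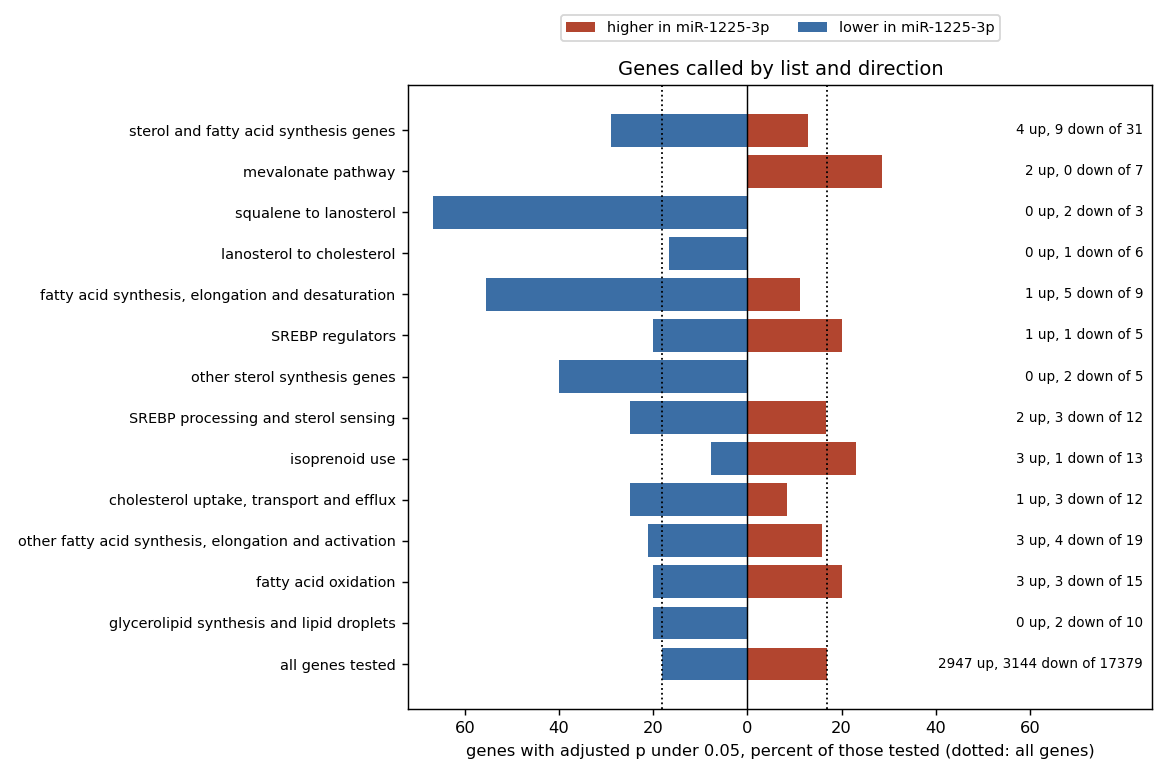
Share of tested genes with adjusted p under 0.05, higher (red, right) and lower (blue, left) in miR-1225-3p cells, for the genes described here, their role groups and the related lists, with counts at the right and dotted lines at the shares over all 17379 genes. The squalene to lanosterol group (2 of 3) and the fatty acid group (5 of 9) extend farthest to the left, and both rest on few genes.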

How the data were processed

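RNA of 10 MEG-01 cultures was hybridized to single-channel Agilent arrays. Per the labels, 100 ng of total RNA was labelled with Cy3. The deposited scanner tables came from Agilent Feature Extraction (10.7.3.1 per the submitters' processing notes), and per the file headers the processed, median and background signals are intensity values with flags, and the authors added a table of normalized log2 values. Here the log2 processed signals of 58717 spots were brought to a common scale by cyclic loess (3 iterations, limma 3.58.1, R 4.3.3). The 4259 control spots were dropped, outlier-flagged spots treated as missing and replicate spots averaged. A probe was kept if at least 3 arrays in one of the groups were well above background for it (20648 of 42405), and a gene was its brightest kept probe. Names came from RefSeq accessions (24910 probes matched, GRCh38.p14). Probes without a match kept the array's own name and were counted among the genes tested. Groups were compared with limma and Benjamini-Hochberg adjustment over 17379 genes at 0.05, and with exact two-sided permutation tests for single genes. The normexp alternative used the median signal with an offset of 50.

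The 32 genes and the related lists were chosen with earlier results of these data known. Values on every array are given for genes past the threshold and for SREBF1, SREBF2, SCAP, INSIG1, INSIG2, HMGCS1, SQLE, ACACA, FASN and SCD. MVD, chosen after its values were seen, was added. From each related list at most 3 genes are named, the called ones of largest change that were well above background on all arrays, and some genes under these rules are not reported here. The fit was tested on simulated data that had the spread of the scrambled arrays in both groups. In the real data 14 of the 31 genes had an SD over 1.5 times larger in miR-1225-3p cells. The simulation did not cover such unequal spread. Same-numbered arrays of the 2 groups did not deviate together (correlations from -0.40 to 0.07), so the numbers were not used as pairs. The number of arrays limits the precision. P-values measure the spread between cultures of 1 line.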

Additional observations from a re-analysis of the deposited data

Results flagged for a closer look

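ACLY on miR-1225-3p replicate 5 had a log2 signal of 10.14, far from the other 4 arrays of its group, which lay between 9.08 and 9.23. The gap to the nearest of them was 0.862 of the group's whole range. Of 62 sets of 5 arrays examined, this was 1 set, where chance would give 3.1.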

How the results depend on the processing

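Up to 25 alternatives were run per gene, and each result is 1 gene under 1 alternative. The 13 genes past the threshold kept direction and call in 183 results, lost the call with the same direction in 134 and changed sign in 1. The 18 others kept their side in 388 results, passed in 20 and changed sign in 36. With the 75th percentile subtracted the median log2 fold change of the genes was 0.36, with quantile normalization -0.0057, without scaling -0.063 and within slide 1 -0.038. Without scaling 1266 of all 17379 genes and 0 of the 31 passed. Without the filter on dim probes 3411 of all 35267 genes and 5 of the 32 passed. Within slide 1, 7 of the 29 tested there passed, beside 4753 of all 16184 genes. Within slide 2 limma called 0 of the 29 tested there and 0 of all 14632 genes, with 1 and 1183 at an unadjusted p under 0.05. A block for the replicate number left 0 of the 31 and 0 of all genes called by limma, with 16 and 7474 at an unadjusted p under 0.05. The methods' t-test called 10 of the 31 and 4677 of all genes after Benjamini-Hochberg adjustment, and 16 and 8284 at an unadjusted p under 0.05. Leaving out 1 array gave between 2151 and 9564 genes and between 4 and 18 of the 31, of which 29 were tested without scrambled replicate 3, 4 or 5. The causes were not tested.

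Sign changes with the 75th percentile subtracted were DHCR7 0.22, EBP 0.49, FDPS 0.41, IDI1 0.13, INSIG1 0.40, MVK 0.39, NSDHL 0.36, SCAP 0.079 and SQLE 0.47, and the median of all genes was then 0.16. With quantile normalization they were EBP 0.0035, INSIG1 0.088, MVK 0.10, NSDHL 0.092 and SCAP 0.025, and without scaling EBP 0.063 and SQLE 0.051. FASN was -0.045 in the authors' values, -0.034 with normexp and -0.038 within slide 1. SREBF1 was -0.12 as the mean of its probes. Within slide 1, IDI1 was 0.15, INSIG1 0.27 and NSDHL 0.0026, and within slide 2, EBP was 0.027, FADS1 -0.071 and SCAP 0.084. With 1 array left out, MVK ranged from -0.056 to 0.0066, NSDHL from -0.11 to 0.043, INSIG1 from -0.094 to 0.041, FASN from -0.030 to 0.10 and EBP from -0.13 to 0.035. Of these genes only SREBF1 was past the threshold with all arrays.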
